A study of Mus musculus with 9 samples.

Results

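A small group of mouse miRNAs is read from genes that are annotated not only as miRNA hairpins but also as small nucleolar RNAs (snoRNAs) or small Cajal body RNAs (scaRNAs). Of the 358 miRNAs tabulated in epididymosomes, 10 were taken by name as such miRNAs, namely miR-1839-5p, miR-1839-3p, miR-1843a-5p, miR-1843b-5p, miR-1843b-3p, miR-677-5p, miR-677-3p, miR-664-3p, miR-1291 and miR-3068-3p. The rule lists them by name, for hairpins in such genes, and sets no threshold on a measured level. In GENCODE the hairpins of all 10 overlapped a snoRNA or scaRNA gene on the same strand, which describes the choice and is not a result.

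Epididymosomes are membrane vesicles that the epididymal epithelium releases into the lumen, where maturing spermatozoa meet them. Vesicles were purified separately from the caput (proximal), corpus (middle) and cauda (distal) segments of male inbred Swiss mice aged 8 weeks, for which no transgene or treatment is stated. Small RNA was sequenced in 3 libraries per segment, and each library was made from RNA pooled over several animals, so that a replicate is a pool and not a mouse. Levels are given in CPM, read counts scaled to a common total of miRNA reads in every library.

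Most miRNAs are cut from a hairpin transcript by the nuclease Drosha and then by Dicer, which leaves a 5p and a 3p arm, either of which may be loaded into an Argonaute protein and recognise messenger RNAs through its seed, bases 2 to 8. SnoRNAs and scaRNAs have other work. They guide chemical modification of ribosomal and spliceosomal RNAs, and in mammals most are processed out of introns of host genes. The H/ACA type folds into paired hairpins, carries an ACA box close to its 3′ end and guides pseudouridylation, whereas the C/D type is shorter, has a C box near its 5′ end and a D box near its 3′ end and guides 2′-O-methylation. H/ACA hairpins resemble miRNA precursors in shape, and small RNAs of miRNA size have been described from both types.

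The mature arms are shown first because their seeds set them apart from one another and from the rest of the miRNAs in the table. The sequences are those of RefSeq (GRCm38.p6), with the seed in capitals, and 9 of the 10 members had an entry. miR-1839-3p is named without its sequence.
miR-1839-5p: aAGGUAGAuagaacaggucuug
miR-1843a-5p: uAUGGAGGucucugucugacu
miR-1843b-5p: aUGGAGGUcucugucugacuu
miR-1843b-3p: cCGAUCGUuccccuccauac
miR-677-5p: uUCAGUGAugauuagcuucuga
miR-677-3p: gAAGCCAGaugccguuccugagaagg
miR-664-3p: uAUUCAUUuacuccccagccua
miR-1291: aUGGCUCUuacugaagacuagcaguu
miR-3068-3p: gGUGAAUUgcaguacuccaaca

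None of the 9 seeds was found at bases 2 to 8 of any other miRNA of the table with a RefSeq sequence, of which there were 299 in all. Seeds were also compared displaced by 1 base, where a match covers all but 1 of the seed bases and not the whole seed. Such a match joined the seed of miR-1839-5p to those of let-7a-5p, let-7b-5p, let-7c-5p, let-7d-5p, let-7e-5p, let-7f-5p, let-7g-5p, let-7i-5p, miR-98-5p and miR-379-5p. In the same way miR-1291 matched miR-149-5p, miR-3068-3p matched miR-183-3p and miR-1843b-5p matched miR-5621-5p. The 5p arms of miR-1843a and miR-1843b hold a common stretch of 20 bases, auggaggucucugucugacu, which starts at base 2 of the former and base 1 of the latter. Their seeds are thus also displaced by 1 base, and reads that cover only the common stretch cannot be assigned to either, so the levels of these arms are uncertain as separate values.

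The 7 hairpins lie on chromosomes 1, 7, 10, 12 and 15 of GRCm38 (GENCODE vM21). Mir677 (chr10:128085286-128085363, plus strand) is in an intron of Atp5b, which encodes a subunit of mitochondrial ATP synthase. Mir1843b (chr1:159340358-159340423, plus) overlaps Scarna3a in an intron of Cop1, which encodes a ubiquitin ligase, and Mir1843a (chr12:80391613-80391677, minus) lies within Scarna3b in an intron of Dcaf5. Mir664 (chr1:185242975-185243043, plus) overlaps Snora36b in an intron of Rab3gap2, Mir1291 (chr15:98519762-98519878, minus) overlaps Snora34 in an intron of Kansl2, and Mir3068 (chr12:87437679-87437757, minus) is in an intron of Alkbh1. Mir1839 (chr7:81529916-81529988, plus) lies in no intron of a protein-coding gene and falls within an exon of the long non-coding RNA 2900076A07Rik. Mir3068 and Mir1843a also overlap an exon of a non-coding transcript, Gm29362 and CT030161.1.

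Each of the 9 arms with a sequence matched the annotated small RNA exactly and lay wholly within it. Full-length small RNAs are given below in their sense strand for the miRNAs that changed between segments, with the mature arms that have a sequence in capitals. In the Mir1839 RNA the capitals mark miR-1839-5p, which was not called as changed in any comparison. The arm of that RNA that was called, miR-1839-3p, has no sequence here and is not marked.
Mir1839 (scaRNA, chr7:81529855-81529981, plus): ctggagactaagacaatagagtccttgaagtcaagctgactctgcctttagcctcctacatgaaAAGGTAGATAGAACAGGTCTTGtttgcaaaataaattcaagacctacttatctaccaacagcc
Mir677 (snoRNA, chr10:128085289-128085360, plus): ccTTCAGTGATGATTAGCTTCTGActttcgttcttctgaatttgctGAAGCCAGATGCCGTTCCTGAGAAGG
Mir3068 (snoRNA, chr12:87437682-87437817, minus): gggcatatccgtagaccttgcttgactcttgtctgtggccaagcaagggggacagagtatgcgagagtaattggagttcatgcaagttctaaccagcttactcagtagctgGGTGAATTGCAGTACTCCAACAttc

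ACA followed by exactly 3 bases ends the RNAs of Mir1839, Mir3068, Snora36b and Snora34, and in Scarna3a and Scarna3b ACA is followed by 2 bases. The Mir677 RNA has no such ending. It is 72 bases long, against 127 to 140 bases for the others, and holds GTGATGA in its first 20 bases and CTGA in its last 20 bases, letters that match the C and D boxes. The 2 patterns, searched on the sense strand of 1558 annotated snoRNA and scaRNA transcripts, were found in 301 (19.3%) for ACA and in 307 (19.7%) for GTGATGA or ATGATGA with CTGA. miR-677-5p spans bases 3 to 24 of its RNA and thereby the C-box letters, whereas miR-677-3p is the last 26 bases. The other hairpins of the H/ACA or scaRNA kind gave arms from their 3′ portion, except Snora34, of which miR-1291 is the first 26 bases.

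**Figure D1:**
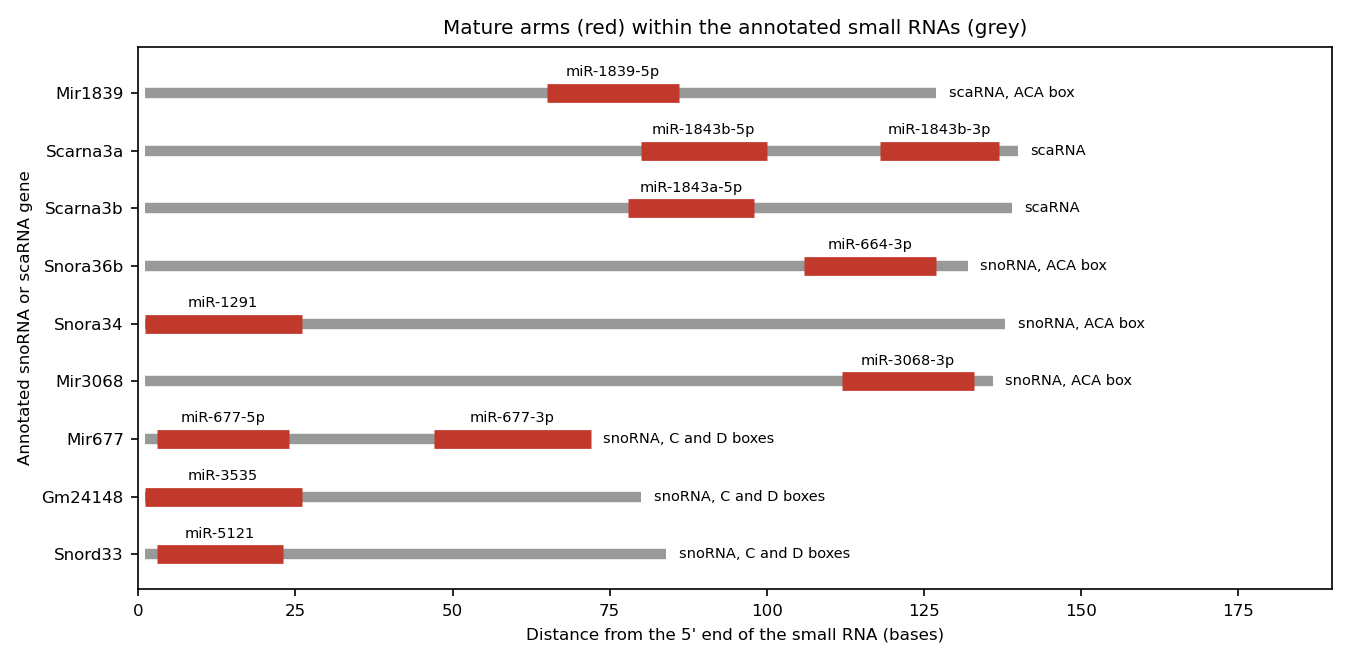
Position of the mature arms (red) along the annotated snoRNAs and scaRNAs (grey), with the distance from the 5′ end in bases on the horizontal axis and 1 RNA per row. The Mir677, Gm24148 and Snord33 RNAs, which have C and D boxes, are 72 to 84 bases long and carry an arm that starts at base 1 or 3, while in the longer RNAs, other than Snora34, the arms start at base 65 or later.

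The 9 libraries held 1548581 to 11306605 reads on miRNAs, with the deepest libraries from the caput. miR-10a-5p and miR-10b-5p took 50.5 to 71.3% of the caput reads, 50.3 to 53.2% of the corpus reads and 33.2 to 34.5% of the cauda reads. Their share was 63.2, 71.3 and 50.5% in caput replicates 1, 2 and 3. The CPM of all other miRNAs thus had least room in caput replicates 1 and 2, while replicate 3 was within the corpus range. Across the miRNAs tested, the median log2 fold change was 0.47 from caput to corpus, 0.18 from corpus to cauda and 0.81 from caput to cauda. Rescaling by the trimmed mean of M values (TMM) brought these medians to −0.09, 0.08 and 0.13, and TMM values are given beside the changes and counts that they alter most. The TMM factors were 0.753, 0.478 and 1.16 in caput replicates 1, 2 and 3, 1.08 to 1.14 in the corpus and 1.08 to 1.29 in the cauda. The summed CPM of 5 epithelial miRNAs, the miR-200 family, was 20990 to 31796 in the caput, 71973 to 84209 in the corpus and 44552 to 61007 in the cauda, and none of the 5 was at 0. miRNAs of other cells were also measured: the sum of miR-143-3p and miR-145a-5p, markers of smooth muscle, was 50006 to 88769, 88249 to 121178 and 290934 to 353014 CPM in the 3 segments, and the sum of 4 of 5 listed striated muscle miRNAs was 55.5 to 197, 121 to 167 and 1403 to 4146 CPM. The sum of 3 of 4 red blood cell names was 122 to 468, 234 to 657 and 1595 to 2208 CPM. That of 8 of 8 male germ cell miRNAs was 356 to 1043, 967 to 1148 and 2156 to 2504 CPM. In both lists all cauda libraries lay above those of the other segments. The sum of 5 of 6 leukocyte names was 231 to 530, 515 to 1149 and 392.3 to 1601 CPM, with the segments overlapping. No listed miRNA of the table was at 0 in all libraries. The part of these other cells in the results was not tested. In vesicle preparations a smaller number of vesicles of one kind and a smaller load per vesicle cannot be told apart.

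All 10 members were read in all 9 libraries. Together they made up 388 to 927 CPM in the caput, 909 to 1133 CPM in the corpus and 649 to 779 CPM in the cauda, or 0.0388 to 0.113% of the miRNA reads. miR-1839-5p ranked 89 among the 358 miRNAs by its mean of 382 CPM over the libraries and accounted for the largest share of these reads. Of the 90 values, 1 was at or under 3 reads, that of miR-677-3p in cauda replicate 1 (2 reads). A mean of 10 CPM or more in each of the 3 segments was reached by 7 members, while miR-1843b-3p, miR-677-3p and miR-1291 fell short of it in at least 1 segment. Each comparison therefore tested 9 members, those averaging 10 CPM or more in 1 or both of its segments, and a miRNA was taken as differentially accumulated at an adjusted p under 0.05 by limma (Benjamini-Hochberg over all miRNAs tested) and a fold change of at least 2. miR-677-3p entered only through its corpus mean (22.0 CPM, against 4.70 in the caput and 5.73 in the cauda). miR-1843b-3p entered only through the caput (10.5 CPM) and miR-1291 only through the cauda (11.9 CPM). Their entry thus depended on the segment where each was high, and their calls in the counts below carry that selection.

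**Figure D2:**
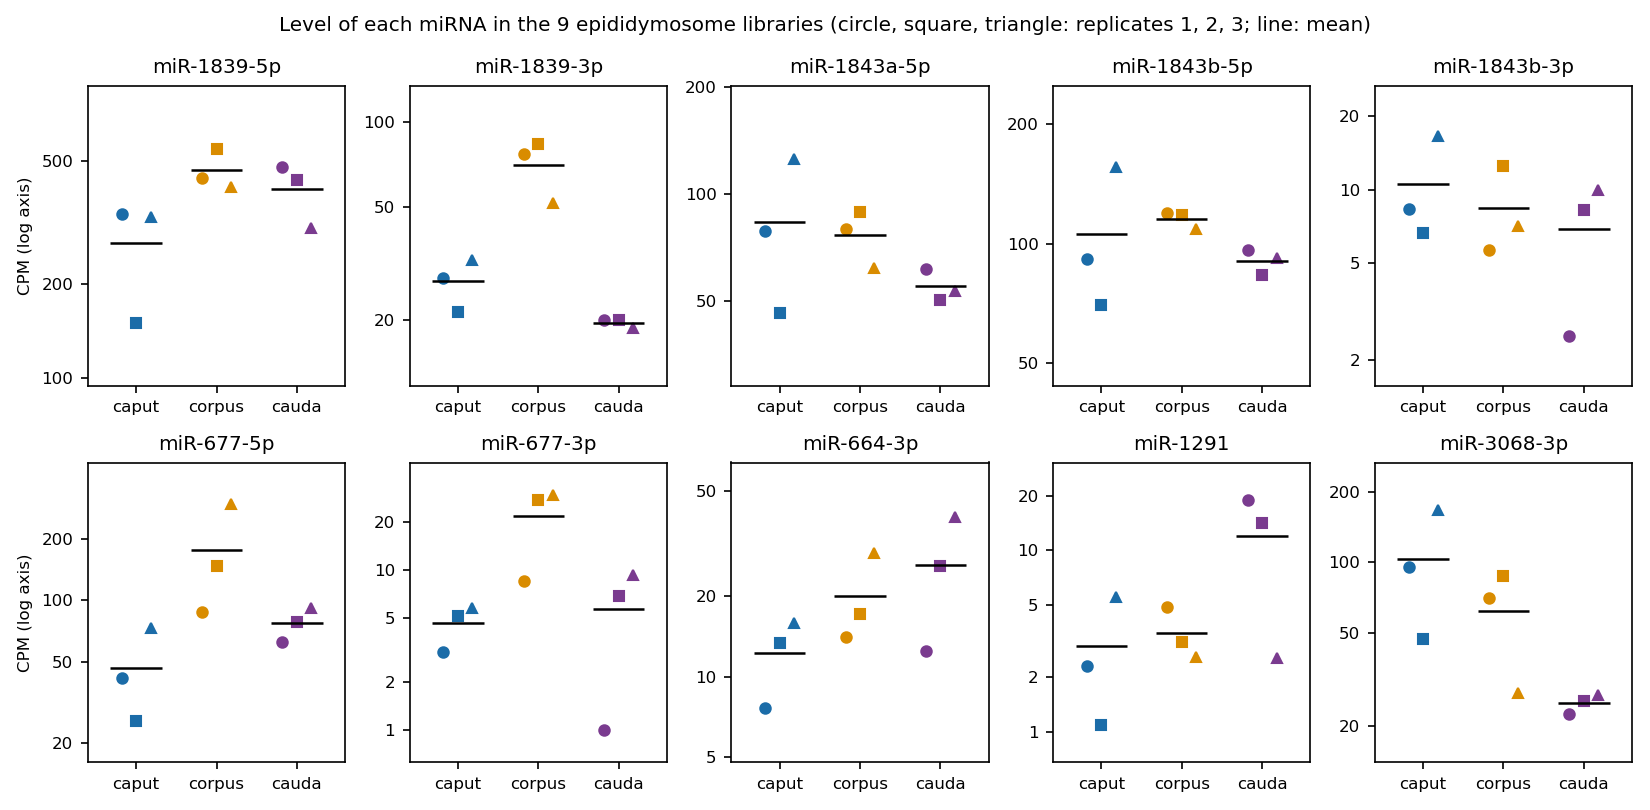
Level of each of the 10 miRNAs in CPM on log axes whose range differs between panels, in the 3 caput, 3 corpus and 3 cauda libraries; symbols mark replicates and the line their mean. miR-1839-3p and the miR-677 arms have their highest mean in the corpus, though for the miR-677 arms corpus replicate 1 lies below cauda replicate 3. miR-3068-3p in the cauda sits between 22.5 and 27.3 CPM, below all caput and corpus libraries, though corpus replicate 3 (27.8 CPM) is barely higher.

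From caput to corpus, 3 of the 9 members tested were differentially accumulated, all higher in the corpus (miR-1839-3p, miR-677-5p and miR-677-3p), while the whole table had 22.4% of 321 miRNAs differentially accumulated and 19.0% higher. From corpus to cauda, 2 of 9 were, both lower in the cauda (miR-1839-3p and miR-677-3p), against 19.0% of 342 miRNAs in either direction and 4.97% lower. From caput to cauda, 1 of 9 was, miR-3068-3p with a lower level in the cauda, against 49.0% of 349 miRNAs and 10.3% lower. The median log2 fold changes of the members tested were 0.66, −0.46 and −0.14 in these comparisons, beside 0.47, 0.18 and 0.81 for all miRNAs. With TMM they were 0.12, −0.56 and −0.81, and the members called numbered 2, 4 and 4 of 9, beside 28.3%, 26.3% and 45.3% of all miRNAs. Those 2 went in opposite directions (13.1% of all miRNAs were higher and 15.3% lower in the corpus), whereas the 4 and 4 were all lower in the cauda, as were 9.94% and 20.3% of all miRNAs. miR-677-3p was tested in the first 2 comparisons only through its corpus level, and miR-1843b-3p from caput to cauda only through its caput level. Their calls here carry that selection. The 3 comparisons share libraries, so they are not independent of one another.

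The libraries of the segments did not overlap in CPM for 4 members from caput to corpus (the arms of miR-1839 and miR-677, all higher in the corpus), beside 34.9% of all miRNAs tested and 29.3% higher. From corpus to cauda 4 members did not overlap (miR-1839-3p, miR-1843a-5p, miR-1843b-5p and miR-3068-3p, all lower in the cauda), beside 46.2% and 16.1% lower. For miR-1843a-5p the nearest libraries were at 61.99 and 61.47 CPM, and for miR-3068-3p at 27.77 and 27.30 CPM. Corpus replicate 3 was the corpus library of both pairs, where 3 reads equal 1.94 CPM, so these gaps are within counting error. From caput to cauda the libraries of 2 members did not overlap (miR-1839-3p and miR-3068-3p, both lower), beside 54.2% and 11.7% lower. For miR-1839-3p the nearest libraries were at 21.39 and 20.14 CPM, also within counting error. TMM changed these tallies. From caput to corpus 6 members then did not overlap, beside 47.7% of all miRNAs, with 2 higher in the corpus (miR-1839-3p and miR-677-5p, beside 19.9%) and 4 lower (the miR-1843 arms and miR-3068-3p, beside 27.7%). From corpus to cauda it was 5, all lower (miR-1839-3p, miR-1843b-5p, miR-677-5p, miR-677-3p and miR-3068-3p), beside 47.4% and 19.6% lower. Between caput and cauda it was also 5, all lower (miR-1839-3p, the miR-1843 arms and miR-3068-3p), beside 58.7% and 26.6% lower.

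**Figure D3:**
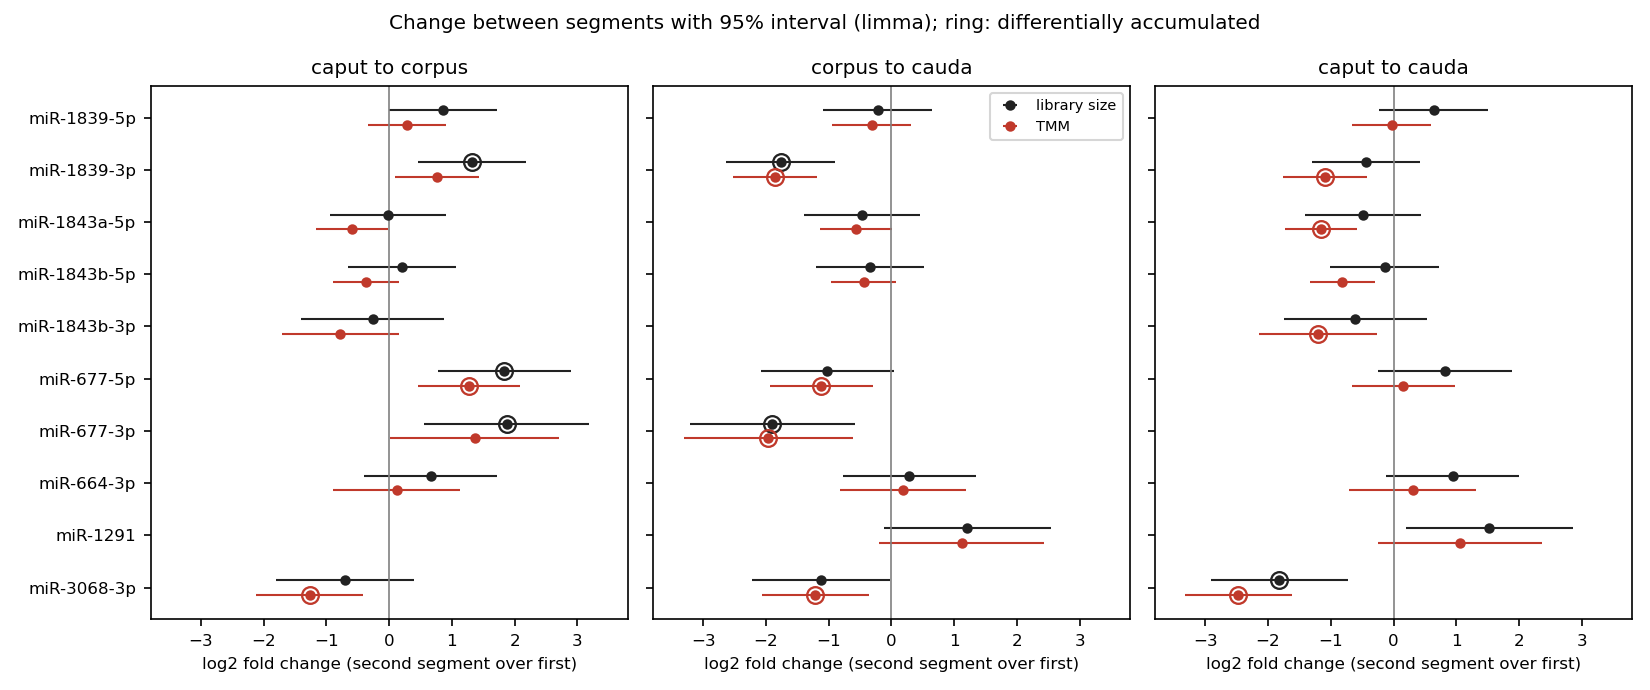
Log2 fold change with its 95% interval (limma, n = 3 libraries per segment) of each member in the 3 comparisons, after library size scaling (black) and after TMM (red); rings mark differential accumulation and members below the level tested have no point. With both scalings miR-1839-3p fell from corpus to cauda and miR-3068-3p from caput to cauda.

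miR-1839 gave the most abundant arm of the group and arms that differed in their course along the epididymis. Its hairpin overlaps the 3′ portion of a scaRNA that ends in the ACA box. miR-1839-3p, the minor arm, was found at 28.2, 21.4 and 32.6 CPM in caput replicates 1, 2 and 3, at 76.7, 83.4 and 51.7 CPM in the corpus replicates and at 19.99, 20.1 and 18.8 CPM in those of the cauda. All corpus libraries were higher than the others, and all cauda libraries were lower than those of the caput. Caput replicate 2 (21.4 CPM) exceeded cauda replicate 2 (20.1 CPM) only within counting error. The segment means were 27.4 ± 5.67, 70.6 ± 16.7 and 19.7 ± 0.721 CPM (SD, n = 3 each). miR-1839-3p rose from caput to corpus by a log2 fold change of 1.32 (standard error 0.41, adjusted p = 0.0281) and fell by 1.77 on the log2 scale from corpus to cauda (standard error 0.41, adjusted p = 0.00630).

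The fall of miR-1839-3p from corpus to cauda passed in all 20 alternatives, with adjusted p between 0.000869 and 0.0479. The rise from caput to corpus did not pass after TMM (log2 fold change 0.76, adjusted p = 0.0712, range over the alternatives 0.0122 to 0.113), nor without caput replicate 1, corpus replicate 1, corpus replicate 2 or cauda replicate 2 in turn. The rise also failed with the 6 libraries alone (adjusted p = 0.0681), median-of-ratios scaling (0.0532) and limma-voom with TMM (0.0547). With TMM and the replicate block it was under the fold of 2. From caput to cauda the log2 fold change of miR-1839-3p was −0.44 (adjusted p = 0.379), and after TMM it was −1.09 and passed (adjusted p = 0.0108, range over the alternatives 0.00668 to 0.549).

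The 5p arm, miR-1839-5p, was read at 337, 150 and 329 CPM in caput epididymosomes, 443, 547 and 413 CPM in those of the corpus and 481, 435 and 305 CPM in those of the cauda. Every corpus library exceeded every caput library, and the cauda libraries overlapped both. Its log2 fold changes were 0.86 (adjusted p = 0.136, and 0.28 after TMM) from caput to corpus, −0.22 (adjusted p = 0.770) from corpus to cauda and 0.64 (adjusted p = 0.201) from caput to cauda, none past the threshold, and the last was −0.03 after TMM, so its sign depended on the scaling. The 3 miRNAs whose log2 levels followed miR-1839-5p most closely over the 9 libraries were miR-103-3p (Pearson r = 0.967), let-7g-5p (r = 0.951) and miR-429-3p (r = 0.941), a description across libraries that share the differences in scale given above.

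The quotient of 5p over 3p reads within a library does not depend on library scaling. For miR-1839 it was 11.9, 7.03 and 10.1 in caput epididymosomes, 5.77, 6.56 and 8.00 in those of the corpus and 24.1, 21.6 and 16.2 in those of the cauda. All cauda libraries had a higher ratio than any library of the other 2 segments, which overlapped each other. Among 64 precursors whose arms both averaged 10 CPM or more, the log2 ratio of miR-1839 rose from corpus to cauda by 1.57 (standard error 0.35, adjusted p = 0.00876 by limma), where 6.25% of precursors passed. It rose from caput to cauda by 1.09 (standard error 0.35, adjusted p = 0.0459), where 17.2% passed, and differed by −0.48 from caput to corpus (adjusted p = 0.473), where 1.56% passed. The first difference did not pass without corpus replicate 1, corpus replicate 2, cauda replicate 1 or cauda replicate 2 in turn (1.45 to 1.56, adjusted p 0.0568 to 0.0729). The second no longer passed when any single library other than cauda replicate 3 was left out (0.88 to 1.26).

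**Figure D4:**
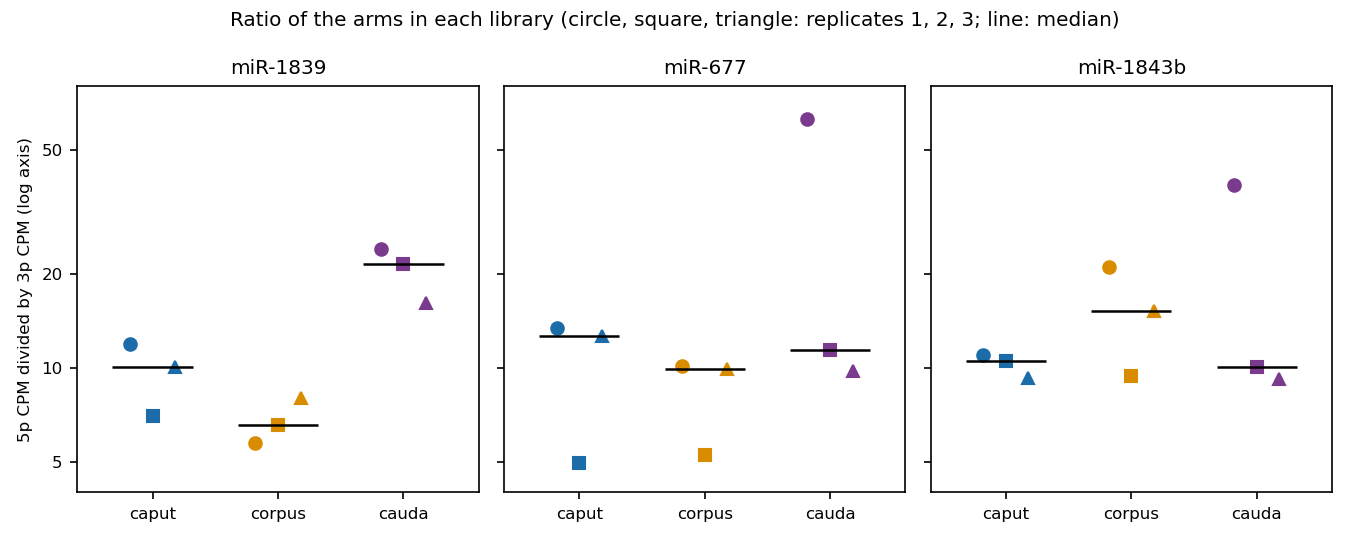
Ratio of 5p to 3p CPM on a log axis for miR-1839, miR-677 and miR-1843b in each library; symbols mark replicates and lines medians. The miR-1839 ratio is 16.2 to 24.1 in the cauda and 5.77 to 11.9 elsewhere, whereas in miR-677 and miR-1843b 1 cauda library stands above the other 2.

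miR-677 is the C/D-type member, and both of its arms were higher in the corpus than in the caput. miR-677-5p, the arm that spans the C box, was read at 41.5, 25.7 and 73.2 CPM in caput epididymosomes, 87.1, 147 and 294 CPM in those of the corpus and 62.5, 78.3 and 91.1 CPM in those of the cauda. The corpus libraries all exceeded those of the caput, but they also spread more widely than in any other segment. Corpus replicate 1 (87.1 CPM) lay below cauda replicate 3 (91.1 CPM). The means were 46.8 ± 24.2, 176 ± 107 and 77.3 ± 14.3 CPM (SD, n = 3 each). miR-677-5p rose from caput to corpus by a log2 fold change of 1.84 (standard error 0.50, adjusted p = 0.0149), and by 1.27 after TMM (adjusted p = 0.0243, range over the alternatives 0.00539 to 0.0885). It did not pass without caput replicate 2 (1.48) or without corpus replicate 3 (1.38). From corpus to cauda its log2 fold change was −1.02 (adjusted p = 0.169), and −1.12 after TMM, which passed (adjusted p = 0.0422, range over the alternatives 0.0268 to 0.534).

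miR-677-3p, the minor arm at the 3′ end of the snoRNA, was at 3.10, 5.20 and 5.80 CPM in caput epididymosomes, 8.56, 27.8 and 29.7 CPM in those of the corpus and 0.999, 6.87 and 9.33 CPM in those of the cauda. Corpus replicates 2 and 3 were the highest, whereas corpus replicate 1 lay below cauda replicate 3. The log2 fold change was 1.87 (standard error 0.62, adjusted p = 0.0374) from caput to corpus and −1.90 (standard error 0.62, adjusted p = 0.0395) from corpus to cauda. Both rest on few reads, 2 to 71 in a library. miR-677-3p was tested in both comparisons only through its corpus mean. That selection favours a rise into the corpus and a fall out of it, so these calls are not support for either. The rise did not pass after TMM (1.36, adjusted p = 0.111, range over the alternatives 0.00741 to 0.125) or without caput replicate 1 or 2 or corpus replicate 2 or 3. It also failed with median-of-ratios scaling (adjusted p = 0.0982), limma-voom with TMM (0.0800) and a pseudocount of 0.1 CPM (0.0608). The fall did not pass without caput replicate 2, corpus replicate 2 or 3 or cauda replicate 1 or 2 and was −1.18 without cauda replicate 1 (2 reads). The fall also failed with limma-voom on recovered reads (adjusted p = 0.109), limma-voom with TMM (0.0890) and the 6 libraries alone (0.0653). With a pseudocount of 10 CPM the fall was −0.99, under the fold of 2. The 5p to 3p ratio of miR-677 was 13.4, 4.95 and 12.6 in caput epididymosomes, 10.2, 5.28 and 9.91 in those of the corpus and 62.5, 11.4 and 9.76 in those of the cauda. No difference in this ratio passed the threshold with all libraries, the largest being 1.03 on the log2 scale from corpus to cauda (standard error 0.60, adjusted p = 0.304), and this one passed only without cauda replicate 3 (1.43, adjusted p = 0.0444, range over the alternatives 0.0444 to 0.953). Without corpus replicate 2 or 3, miR-677-3p fell under the level of 10 CPM and the ratio was not tested, so the range leaves these out.

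A search of the table for other hairpins that overlap a snoRNA or scaRNA gene found 12 miRNAs among the 343 with a hairpin in the annotation, the 10 members plus miR-3535 (Gm24148) and miR-5121 (Snord33). Both of these lie in snoRNAs with C and D boxes by the pattern given above and were not among the named members. Like miR-677-5p they hold the C-box letters UGAUGA, present in 6 of the 299 mature sequences of the table (2.01%). miR-3535 was read at 22.4, 32.5 and 32.1 CPM in caput epididymosomes, 128, 286 and 633 CPM in those of the corpus and 59.97, 88.3 and 52.2 CPM in those of the cauda, in 3 separate ranges. It rose from caput to corpus by 3.28 on the log2 scale (standard error 0.52, adjusted p = 0.000468) and fell by 2.11 from corpus to cauda (standard error 0.52, adjusted p = 0.00825), and both passed after TMM. miR-5121 was read at 26.7, 17.9 and 66.7 CPM in caput epididymosomes, 162, 159 and 256 CPM in those of the corpus and 610, 490 and 233 CPM in those of the cauda. It rose by 2.52 from caput to corpus (standard error 0.51, adjusted p = 0.00285) and by 3.65 from caput to cauda (standard error 0.51, adjusted p = 3.42e-05), both also after TMM.

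All 4 arms within C/D-type snoRNAs were thus called higher in the corpus than in the caput, beside 19.0% of all miRNAs tested. After TMM 3 of the 4 were called, beside 13.1%, and miR-677-3p was higher without passing (1.36, adjusted p = 0.111). miR-677-5p and miR-677-3p are arms of 1 hairpin, so the 4 are not independent, and miR-677-3p was tested only through its corpus level. This grouping by box type was made after the values had been seen and has no test of its own. Within the corpus, miR-677-5p, miR-677-3p and miR-3535 had their lowest level in replicate 1, the library with the most reads (6190324), and their highest in replicate 3, the library with the fewest (1548581). miR-5121 was lowest in replicate 2 and highest in replicate 3 (162, 159 and 256 CPM). Of the members in RNAs with the ACA box, miR-664-3p had the same order as miR-677-5p (14.1, 17.2 and 29.1 CPM) and miR-1291 the reverse (4.85, 3.13 and 2.58 CPM). miR-1839-5p (443, 547 and 413 CPM), miR-1839-3p (76.7, 83.4 and 51.7 CPM) and miR-3068-3p (70.3, 87.3 and 27.8 CPM) were highest in replicate 2 and lowest in replicate 3. The part of library depth in these levels was not tested.

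**Figure D5:**
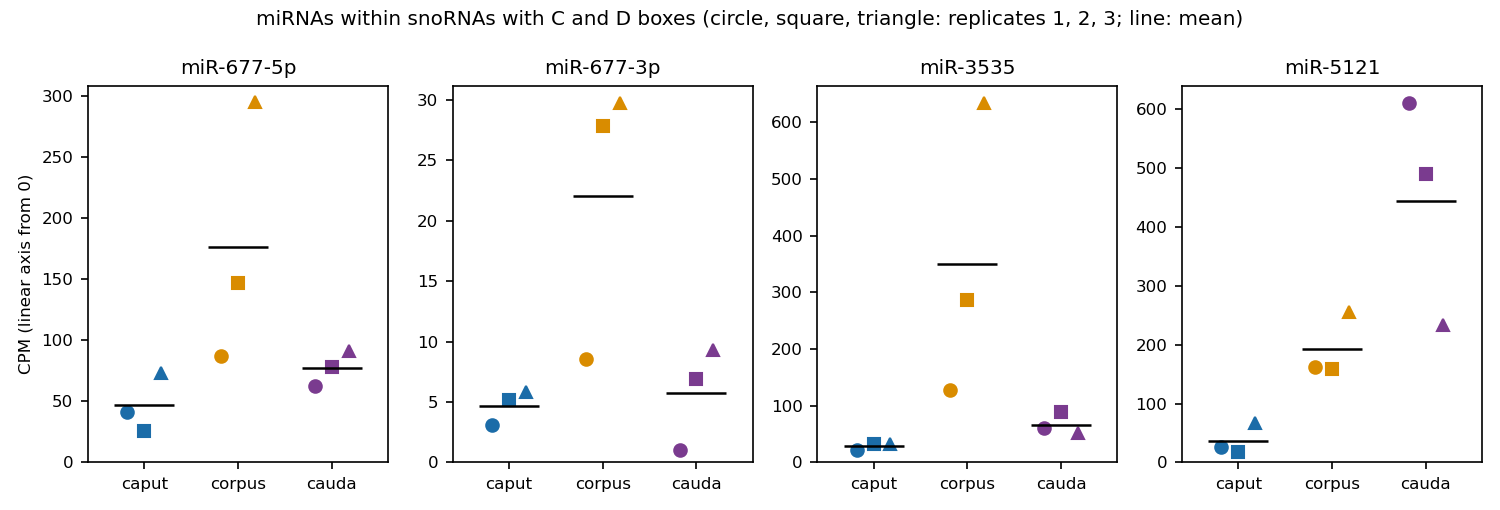
Level in CPM, on linear axes from 0 that differ between panels, of the 4 arms that lie in snoRNAs with C and D boxes, in the 3 libraries of each segment; symbols mark replicates and lines means. miR-677-5p, miR-677-3p and miR-3535 have their highest mean in the corpus, where the libraries spread widely, and miR-5121 reaches 233 to 610 CPM in the cauda.

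miR-3068-3p, from the 3′ end of a snoRNA with an ACA box in Alkbh1, was the member that fell from caput to cauda. It was read at 95.2, 47.3 and 166 CPM in caput epididymosomes, 70.3, 87.3 and 27.8 CPM in those of the corpus and 22.5, 25.6 and 27.3 CPM in those of the cauda. The cauda libraries lay below all the others and close together. Corpus replicate 3 (27.77 CPM) exceeded cauda replicate 3 (27.30 CPM) only within counting error, and caput and corpus overlapped. Between the caput (103 ± 59.8 CPM, SD, n = 3) and the cauda (25.1 ± 2.45 CPM, SD, n = 3) it fell by 1.82 on the log2 scale (standard error 0.52, adjusted p = 0.00901), and this passed in all 20 alternatives with values from −2.54 to −1.39. The steps from caput to corpus (−0.70, adjusted p = 0.340) and from corpus to cauda (−1.12, adjusted p = 0.144) did not pass with library size scaling. After TMM they were −1.27 (adjusted p = 0.0299, range over the alternatives 0.0270 to 0.826) and −1.21 (adjusted p = 0.0348, range 0.0251 to 0.441), and both passed.

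miR-1843a and miR-1843b come from the scaRNA genes Scarna3b and Scarna3a on different chromosomes. miR-1843a-5p was at 79.0, 46.2 and 126 CPM in caput epididymosomes, 79.6, 89.3 and 62.0 CPM in those of the corpus and 61.5, 50.4 and 53.4 CPM in those of the cauda. miR-1843b-5p was at 91.6, 70.2 and 155 CPM in caput epididymosomes, 119, 118 and 108 CPM in those of the corpus and 96.4, 83.3 and 92.1 CPM in those of the cauda. For both arms the cauda libraries were below those of the corpus, and the caput libraries spanned the range of the other segments. For miR-1843a-5p the gap, from 61.99 CPM in corpus replicate 3 to 61.47 CPM in cauda replicate 1, was within counting error. After TMM the caput libraries were the highest for both arms and overlapped neither the corpus nor the cauda. The ratio of miR-1843b-5p to miR-1843a-5p was 1.16 to 1.52 in the caput, 1.32 to 1.75 in the corpus and 1.57 to 1.72 in the cauda, and over the 9 libraries their log2 levels had a Pearson r of 0.906, a description of arms that share most of their bases.

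The log2 fold changes of the miR-1843 arms did not pass the threshold with library size scaling. From caput to cauda they were −0.49 for miR-1843a-5p (95% interval −1.41 to 0.44), −0.14 for miR-1843b-5p (−1.01 to 0.72) and −0.61 for miR-1843b-3p (−1.75 to 0.53). After TMM miR-1843a-5p (−1.15, adjusted p = 0.00352, range over the alternatives 0.00296 to 0.773) and miR-1843b-3p (−1.21, adjusted p = 0.0337, range 0.0191 to 0.901) passed, and miR-1843b-5p changed by −0.81, under the fold of 2. Only its caput mean admitted miR-1843b-3p to the test, so its call after TMM carries that selection. From caput to corpus the sign of miR-1843b-5p depended on the scaling (0.20, and −0.37 after TMM). miR-1843b-3p, the minor arm, was at 8.31, 6.65 and 16.7 CPM in caput epididymosomes, 5.65, 12.5 and 7.10 CPM in those of the corpus and 2.50, 8.24 and 10.01 CPM in those of the cauda, with all 3 segments overlapping. The 5p to 3p ratio of miR-1843b ran from 9.20 to 38.6 and was not among the 64 precursors tested. At a level of 5 CPM, which admitted 76 precursors, its differences lay between 0.04 and 0.51 on the log2 scale, with adjusted p from 0.470 to 0.972.

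miR-664-3p and miR-1291, from the snoRNAs Snora36b and Snora34, had their highest means in the cauda, but their libraries overlapped between segments. miR-664-3p was at 7.61, 13.4 and 15.9 CPM in caput epididymosomes, 14.1, 17.2 and 29.1 CPM in those of the corpus and 12.5, 26.1 and 39.9 CPM in those of the cauda. Its log2 fold change from caput to cauda was 0.95 (95% interval −0.11 to 2.00, adjusted p = 0.123) and 0.31 after TMM. It passed only without cauda replicate 1 (1.38, adjusted p = 0.0472, range over the alternatives 0.0472 to 0.634). miR-1291 was at 2.30, 1.09 and 5.56 CPM in caput epididymosomes, 4.85, 3.13 and 2.58 CPM in those of the corpus and 19.0, 14.2 and 2.54 CPM in those of the cauda. Cauda replicates 1 and 2 were above every other library, while cauda replicate 3 was among the lowest values. From caput to cauda its log2 fold change was 1.52 (standard error 0.63, adjusted p = 0.0529), and 1.06 after TMM. It passed without cauda replicate 3 (2.29, adjusted p = 0.00329), without caput replicate 3 (1.97, adjusted p = 0.0266) and with the 6 libraries alone (adjusted p = 0.0479), the range over the alternatives being 0.00329 to 0.449. It was not tested from caput to corpus, where both means lay under 10 CPM. From corpus to cauda and from caput to cauda only its cauda mean admitted it to the test.

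Some other miRNAs are known to be made without Drosha or from unusual transcripts, among them miR-320 and miR-484. Of 11 such names listed, the table held miR-320-3p and miR-484. miR-320-3p changed by log2 fold changes of 0.78, −0.74 and 0.04 in the 3 comparisons and miR-484 by 0.05, −0.70 and −0.65, none past the threshold. After TMM miR-484 fell from caput to cauda (−1.31, adjusted p = 0.00425).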

How the data were processed

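The authors sequenced TruSeq small RNA libraries on a HiSeq-2000, screened reads for contaminants and assigned them to known mature miRNAs with miRDeep2 (quantifier). The submitters' processing notes also name CASAVA 1.8.2, Bowtie 1.1.1 and limma. Genome build and miRBase release are not given in the sources used here. The deposited values are CPM, scaled by the authors to library size. All were whole multiples of 1 read, from which reads were recovered. A level of 10 CPM equals 15.5 to 113 reads, and 3 reads 0.265 to 1.94 CPM, counting error only.

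limma 3.58 (R 4.3; lmFit, eBayes with trend) was fitted to log2(CPM + 1) of all 358 miRNAs and 9 libraries and adjusted (Benjamini-Hochberg) over miRNAs that averaged at least 10 CPM in either segment. Fold changes on this scale understate low levels. Arm ratios used a pseudocount of 0.5 CPM. The limma, limma-voom and arm-ratio fits and the TMM scaling were tested on simulated data. Annotation was GENCODE vM21, handled with Python 3.11. Named were the 10 members, other miRNAs overlapping snoRNA or scaRNA genes, a list of unusual routes, miRNAs sharing a seed and the 3 most like miR-1839-5p; the grouping by box type and the displaced seeds were chosen after values were seen. Members and lists were chosen with earlier results of these data known. Alternatives were other scalings, pseudocounts, filters, limma-voom, a replicate block, the 6 libraries alone and each library left out.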

Additional observations from a re-analysis of the deposited data

How the results depend on the processing

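No change past the threshold changed sign. Of the log2 fold changes recomputed under the alternatives, 475 kept their side of the threshold, 28 no longer passed (by adjusted p or by the fold of 2) and 29 came to pass. Members called numbered 3 from caput to corpus (1 to 3 with a library left out), 2 from corpus to cauda (1 to 3) and 1 from caput to cauda (1 to 2). From corpus to cauda the count was 4 with TMM, with median-of-ratios scaling and with TMM plus the replicate block, and 1 with a pseudocount of 10 CPM, with limma-voom and with the 6 libraries alone. From caput to cauda it was 4 with TMM, median-of-ratios scaling, limma-voom with TMM and TMM plus the replicate block, and 2 with the replicate block (miR-1291 gained) or the 6 libraries alone. limma-voom with TMM and TMM with the block were added after seeing the data. The miR-1839 arm ratio ranged with a library left out from 1.45 to 1.74 from corpus to cauda and from 0.88 to 1.26 from caput to cauda, and the latter was 1.09 without passing with the 6 libraries alone (adjusted p = 0.0967). That of miR-677 from corpus to cauda ranged from 0.34 to 1.43, and it was not tested without corpus replicate 2 or 3. The labels do not say that a number marks shared animals, and not every pair met the level of 0.1 set for pairing: deviations of same-numbered libraries correlated between −0.21 and 0.41, above 0.1 in 6 of 9 pairs, and own numbers correlated best in 10 of 18 cases. The planned edgeR test was not run; limma-voom was the test used on recovered reads. With 3 pools per segment and fewer reads in the corpus and cauda, members near 10 CPM are the least certain. The causes of these shifts were not tested.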
